A study of Mus musculus with 15 samples.

Results

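The Tribbles family of pseudokinases was followed in mouse cumulus cells across 3 stages of oocyte competence. It has 3 genes, of the 15059 that the deposited expression table names, and its members were taken as every probe that this table calls Trib1, Trib2 or Trib3. This gave 5 of the 20855 probes of the table, 2 for Trib1, 2 for Trib2 and 1 for Trib3. No other of the 39429 gene probes on the array carried a Tribbles accession. Cumulus cells are the somatic cells that enclose the oocyte in the antral follicle, and all of them came here from B6CBAF1/J mice. NC1 cells were taken from unexpanded complexes of 3-week-old juveniles, whose prophase I oocytes were able to resume meiosis but developmentally incompetent. C1 cells were taken in the same way from adults 8 weeks old, with prophase I oocytes that had gained developmental competence. C2 cells were taken from expanded complexes of superovulated 8-week-old adults, collected in the oviduct around metaphase II oocytes. Each stage had 5 arrays, 1 for each pooled group of mice. Pipetting freed the NC1 and C1 cells, and hyaluronidase the C2 cells. Age between NC1 and C1, and hormone treatment, collection site and enzyme between C1 and C2, cannot be told apart from the stage.

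Tribbles proteins have a kinase fold with little or no catalytic activity and work as scaffolds. Their C-terminal tail recruits the ubiquitin ligase COP1 and also binds the MAP kinase kinase MEK1, while the pseudokinase domain of TRIB1 and TRIB2 holds the transcription factor C/EBPα, which is then degraded. TRIB3 is best known as a stress gene that ATF4 and CHOP switch on, and as a partner of AKT and ATF4. In the fly ovary, tribbles acts on the C/EBP protein slbo in the border cells, a group of follicle cells that migrates through the egg chamber.

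Levels are given as the log2 intensity of a probe minus the median of the valid probes on the same array, so 0 is the level of a middle probe, and different probes cannot be compared with each other for abundance. The 17324 probes that stood well above background in 4 or more of the 5 arrays at every stage are called valid. Changes were tested with limma over all valid probes and called at a Benjamini-Hochberg adjusted p below 0.01. The arrays showed 18368 to 24496 gene probes well above background. All 8 granulosa markers were well above background in all 15 arrays, with a summed linear level, relative to the array median, of 246 to 351 at NC1, 261 to 298 at C1 and 40.1 to 52.1 at C2. From C1 to C2, 7 of the 8 were called lower, beside 22.2% of all valid probes. The other, Foxl2, read 3.78 to 4.51 at C1 and 3.80 to 4.27 at C2. Fewer cells of a type and less RNA per cell cannot be told apart in such bulk samples. In C1 replicate 4 the cumulus expansion markers summed to 11.9, against 0.236 to 0.617 in the other C1 arrays. In C2 replicates 4 and 5 the oocyte markers summed to 0.671 and 0.771, against 13.4 to 17.1 in the other C2 arrays.

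Trib1 rose at each step towards the ovulated stage on the brighter of its 2 probes, to a level at C2 that was 12.2-fold that at NC1. Trib2 stayed within its replicate spread between NC1 and C1 and was 5.28-fold lower at C2 than at C1. Trib3 varied widely between arrays of the prophase I stages and was higher and uniform at C2, 2.52-fold above C1. All 4 valid Tribbles probes passed the F-test over the 3 stages, as 51.5% of all valid probes did, but Trib3 lost this call under 11 of 29 alternatives, among them the omission of any single C2 array. In the step from NC1 to C1, 1 of the 4 was called higher, where 1.75% of all valid probes were. In the step from C1 to C2, 3 Tribbles probes were called higher, beside 25.4% of all valid probes, and 1 was called lower, beside 22.2%. From NC1 to C2 the counts were again 3 and 1, beside 26.5% and 24.9%. Of all calls from C1 to C2, 53.3% were of higher probes, against 74.7% with the scaling of the deposited table and 38.9% with spike-in scaling. From NC1 to C1 this share was 69.6%, against 91.6% with spike-ins, and from NC1 to C2 it was 51.6%, against 65.3% with the scaling of the table. With C2 replicates 4 and 5 left out, or C1 replicate 4, Trib3 was no longer called from C1 to C2, which left 2 probes higher and 1 lower. The other Trib2 probe was too dim at C2 to be valid and was tested among the 20844 probes valid in at least 1 stage.

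**Figure D1:**
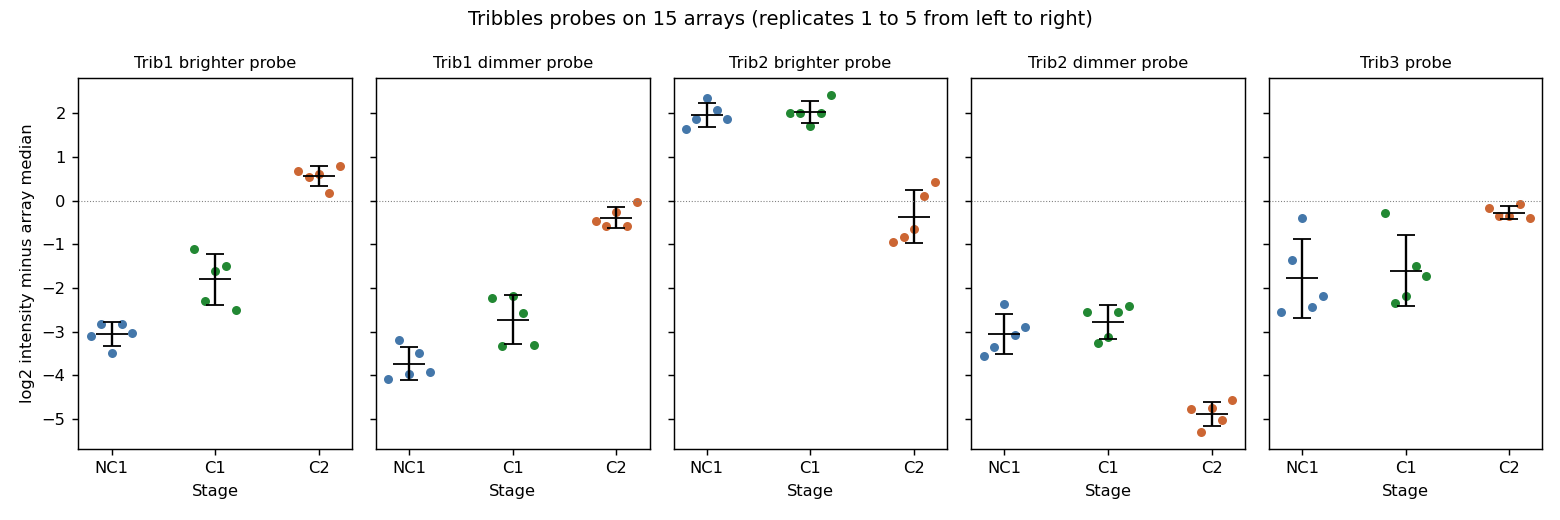
Level of each Tribbles probe on each array (vertical axis, log2 intensity minus the array median) at the stages NC1, C1 and C2. Points are arrays, the black bar is the mean and the whiskers are the SD (n = 5). The Trib1 means climb at each step, with overlap of NC1 and C1 on the dimmer probe, Trib2 drops at C2, and the Trib3 arrays spread from -2.54 to -0.27 before ovulation and from -0.40 to -0.09 at C2.

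Trib1, the member known for steering C/EBPα to COP1, was read by a brighter and a dimmer probe. On the brighter probe the NC1 arrays, replicates 1 to 5, read -3.10, -2.82, -3.49, -2.83 and -3.04. The C1 arrays read -1.10, -2.30, -1.60, -1.50 and -2.49, and the C2 arrays 0.68, 0.54, 0.60, 0.18 and 0.79. No array of a stage reached into the range of another, so the 3 stages stood in the order NC1, C1, C2 without overlap. The means were -3.06 ± 0.27 at NC1, -1.80 ± 0.58 at C1 and 0.56 ± 0.23 at C2 (SD, n = 5). C1 arrays were the most scattered, with an SD that ranked 920 from the top of the 17324 valid probes at that stage.

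The increase of Trib1 from NC1 to C1 was 1.26 on the log2 scale (SE 0.22, 2.39-fold, limma adjusted p = 0.00244). A separation of NC1 from C1 without overlap was found for 5.97% of the valid probes, of C1 from C2 for 43.9% and of NC1 from C2 for 48.9%. From C1 to C2 the increase was 2.36 (SE 0.22, 5.12-fold, limma adjusted p = 1.63e-07), and from NC1 to C2 it was 3.61 (adjusted p = 7.74e-10). In rank, this last rise was 134 of 17324 from the top, and the rises of the 2 steps were 224 and 241. A call of an increase at both steps was made for 0.941% of the valid probes. The second step was larger than the first by 1.102 (95% interval 0.28 to 1.93), a difference that did not pass the threshold (limma adjusted p = 0.0378).

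The dimmer Trib1 probe gave the same order of the stage means. NC1 arrays read -4.08, -3.18, -3.96, -3.48 and -3.93 on it, C1 arrays -2.24, -3.33, -2.17, -2.57 and -3.30, and C2 arrays -0.47, -0.58, -0.27, -0.58 and -0.03. Here C1 replicates 2 and 5 lay within the NC1 range, while every C2 array lay above all the others. Its change from NC1 to C1, 1.00 (SE 0.24, 2.00-fold), was not called (limma adjusted p = 0.0185). From C1 to C2 it rose by 2.34 (SE 0.24, 5.05-fold, adjusted p = 3.33e-07), next to the value of the brighter probe. Its steps differed by 1.33 (adjusted p = 0.019), which was not called. C1 replicates 2 and 5 were the lowest C1 arrays on both probes.

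Each slide carried arrays of all 3 stages, which allowed the Trib1 steps to be read within the 4 slides. The brighter probe was higher at C1 than at NC1 on 4 of 4 slides, by 0.33 to 1.98, and higher at C2 than at C1 on 4 of 4, by 1.86 to 3.09. The dimmer probe was higher at C1 on 3 of 4 slides, with a range of -0.12 to 1.53. Without C1 replicate 4, the array with expansion markers, the first step of the brighter probe was 1.18 (limma adjusted p = 0.00684) and the second 2.43 (adjusted p = 3.84e-07). The call from NC1 to C1 did not survive 5 of the alternative settings, at adjusted p from 0.0104 to 0.0135, whereas its calls at C2 held in all of them.

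Trib2, the paralog that shares with TRIB1 the degradation of C/EBPα, moved the other way. Its brighter probe read 1.65, 1.87, 2.36, 2.08 and 1.87 on the NC1 arrays and 2.00, 2.01, 1.71, 2.01 and 2.42 on the C1 arrays. At C2 it read -0.93, -0.82, -0.64, 0.12 and 0.43. The prophase I stages overlapped almost entirely, and all C2 arrays lay below them, with replicates 4 and 5 apart from the other C2 arrays. The means were 1.96 ± 0.27, 2.03 ± 0.25 and -0.37 ± 0.61 (SD, n = 5).

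Between NC1 and C1 the Trib2 level differed by 0.07 (95% interval -0.43 to 0.56, limma adjusted p = 0.936), and the sign of this difference turned under some alternatives. From C1 to C2 the brighter probe fell by 2.40 on the log2 scale (SE 0.23, 5.28-fold lower, adjusted p = 2.12e-07) and stood at -2.33 against NC1 (adjusted p = 2.24e-07). The first of these changes ranked 322 from the bottom of the 17324 valid probes. The 2 steps differed by -2.47 (limma adjusted p = 0.00022), a difference that was called for 22.3% of the valid probes. On 4 of 4 slides C2 was lower than C1, with differences of -3.05 to -1.58. Without C2 replicates 4 and 5 the change was -2.83 (adjusted p = 9.72e-09).

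The dimmer Trib2 probe read -3.55, -3.36, -2.37, -3.06 and -2.89 at NC1, -2.55, -3.25, -3.12, -2.55 and -2.41 at C1, and -4.78, -5.29, -4.74, -5.02 and -4.57 at C2. It was well above background in all NC1 and C1 arrays and in 1 of 5 at C2, so its C2 values lie close to what the array can see. Among the 20844 probes valid in at least 1 stage it was called lower at C2 than at C1, as 24.4% of them were, with a measured log2 change of -2.10 (limma adjusted p = 9.85e-07). It entered this set through NC1 and C1 only, so the filter favoured a call of lower at C2, and the call adds no separate evidence. Since 4 of 5 C2 values were not well above background, the size of this change is not resolved. Its change from NC1 to C1, 0.27, was not called (adjusted p = 0.627), while 2.94% of them were.

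Trib3, the stress-responsive member, gave a different picture. Its single probe read -2.54, -1.35, -0.39, -2.44 and -2.18 at NC1. It read -0.27, -2.33, -2.18, -1.50 and -1.73 at C1 and -0.16, -0.36, -0.35, -0.09 and -0.40 at C2. NC1 replicate 3 and C1 replicate 1 were as high as the C2 arrays, and the remaining prophase I arrays all lay below them. The means were -1.78 ± 0.91 at NC1, -1.60 ± 0.82 at C1 and -0.27 ± 0.14 at C2 (SD, n = 5). Over the valid probes the median SD was 0.211, 0.232 and 0.202 at these stages, and the Trib3 SD ranked 100 from the top of the 17324 probes at NC1, 257 at C1 and 13089 at C2.

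From NC1 to C1 Trib3 differed by 0.18 (95% interval -0.66 to 1.01, limma adjusted p = 0.886). It rose from C1 to C2 by 1.33 (SE 0.39, 2.52-fold, adjusted p = 0.00795) and from NC1 to C2 by 1.51 (adjusted p = 0.00315), with groups that overlapped in each comparison. The 2 steps differed by 1.16 (95% interval -0.29 to 2.60, adjusted p = 0.21), which was not called. On 4 of 4 slides C2 was higher than C1, by 0.90 to 2.02. The call from C1 to C2 was lost under 16 alternatives and kept under 14, with adjusted p from 0.000717 to 0.0331. Leaving out any C2 array or any of C1 replicates 2 to 5 was enough to lose it, at changes of 1.15 to 1.37, whereas without C1 replicate 1 the change was 1.67.

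A stretch of the Trib3 gene near its start is shown because it holds the composite letters TTNCATCA, to which ATF4 binds together with a C/EBP protein such as CHOP. RefSeq windows (build GRCm38.p6) of 250 bases before and 50 after each gene start were searched for these letters on both strands. A match was found in 3.97% of the 32851 windows, in the Trib3 window and not in the Trib2 window. Trib1 was not among the windows used here. For 16 of the 21 genes listed for the ATF4 response a window was given, and 7 of them held a match. The capitals mark the match, read 5′ to 3′ on the strand of the gene.
Trib3: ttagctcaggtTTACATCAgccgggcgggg
Nupr1: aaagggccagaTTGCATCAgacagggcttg
Vldlr: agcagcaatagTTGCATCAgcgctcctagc
Atf3: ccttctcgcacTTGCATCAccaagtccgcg
Asns: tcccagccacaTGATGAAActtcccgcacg
The Trib3 stretch is chr2:152344028-152344057 on the minus strand, and its match begins at base 15 after the start, inside the transcript. The others lie at chr7:126625562-126625591 (Nupr1, minus strand), chr19:27216809-27216838 (Vldlr, plus strand), chr1:191183425-191183454 (Atf3, minus strand) and chr6:7693214-7693243 (Asns, minus strand), all before the start. In Asns the match is on the opposite strand to the gene. The palindromic cyclic AMP response element TGACGTCA was found in neither Tribbles window, beside 1.79% of all windows.

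The genes shown are those of the list that hold a match and are valid, and they did not all change in 1 direction at C2. Nupr1, a small stress-induced chromatin protein, rose with Trib3 from C1 to C2, by 3.29 (SE 0.20, limma adjusted p = 9.87e-10). Vldlr, a lipoprotein receptor, rose by 2.17 (SE 0.17, adjusted p = 1.44e-08). Atf3, a repressor of the same response, had risen from NC1 to C1 by 1.83 (adjusted p = 0.00647) and was then lower at C2 by a log2 change of -1.85 (adjusted p = 0.000405). Asns, the asparagine synthetase, changed by 0.09 (adjusted p = 0.391).

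**Figure D2:**
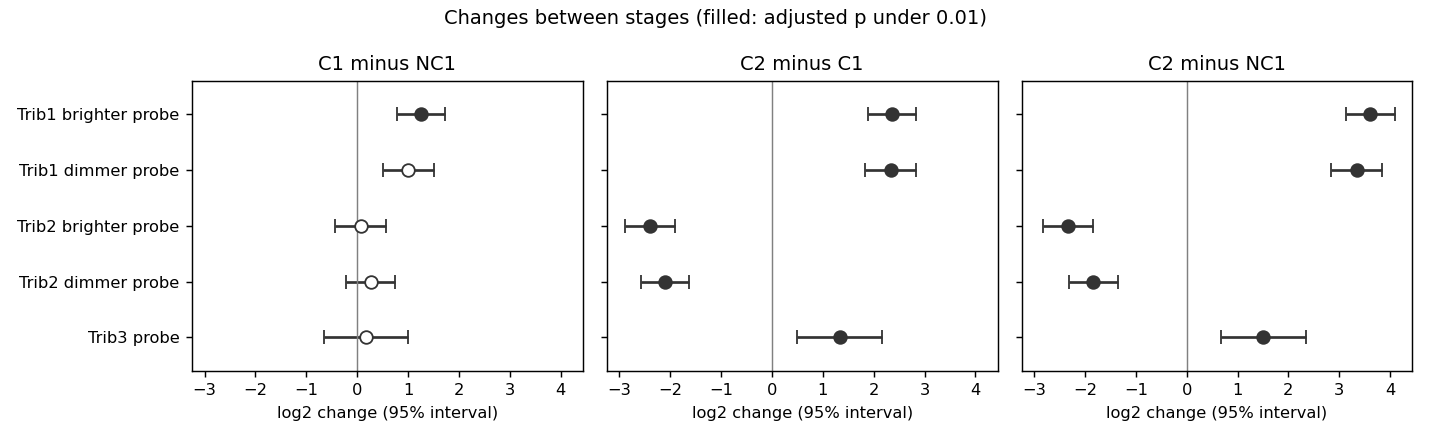
Log2 change of each Tribbles probe for C1 minus NC1, C2 minus C1 and C2 minus NC1 (horizontal axis), with 95% intervals from limma. Filled points passed an adjusted p of 0.01, taken for the dimmer Trib2 probe over the probes valid in at least 1 stage. Only the brighter Trib1 probe is filled for C1 minus NC1, and at C2 the Trib1 and Trib3 probes lie to the right of 0 and both Trib2 probes to the left.

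The difference between members was itself tested, as the within-array difference of 2 probes, with a two-sided exact permutation test over 5 against 5 arrays. The smallest p this design allows is 0.00794, 6 tests were made, and the adjusted values were called at 0.05. From C1 to C2 Trib1 changed by 4.76 more than Trib2 (exact p = 0.00794, adjusted 0.0238), and Trib2 by -3.73 relative to Trib3 (exact p = 0.00794, adjusted 0.0238). In both pairs the C1 and C2 arrays did not overlap. Trib1 rose by 1.02 more than Trib3 in this step (exact p = 0.0159, adjusted 0.0317). From NC1 to C1 Trib1 changed by 1.19 more than Trib2 (exact p = 0.0317, adjusted 0.0476). With the dimmer Trib1 and Trib2 probes, these last differences were 1.00 (adjusted exact p = 0.0635) and 0.73 (adjusted exact p = 0.19). Trib1 against Trib3 from NC1 to C1 gave 1.08 (adjusted exact p = 0.0762), and Trib2 against Trib3 gave -0.11 (adjusted exact p = 0.833).

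Genes of the C/EBP transcription factors, a family whose member C/EBPα is bound by TRIB1 and TRIB2, were mostly called higher at C2. Of 6 C/EBP genes 5 were valid, and 4 of these were called higher at C2 than at C1 and 0 lower, beside 25.4% and 22.2% of all valid probes, with a median change of 1.21 against 0.02 over all of these. The count was 3 with spike-in scaling and 5 with the scaling of the deposited table. Cebpb, the factor that the ovulatory surge induces in granulosa cells, went from 3.76 ± 0.64 to 5.41 ± 0.38 (SD, n = 5), a change of 1.66 (limma adjusted p = 0.000106). Cebpa, the preferred substrate of TRIB1 and TRIB2, rose by 1.53 (adjusted p = 4.8e-06), from -0.73 ± 0.40 to 0.79 ± 0.30. Ddit3, which encodes CHOP, rose by 1.21 (adjusted p = 1.55e-05) and Cebpg, the partner of ATF4, by 0.50 (adjusted p = 0.00214). Cebpd rose earlier, from NC1 to C1, by 0.90 (adjusted p = 0.00182), and its change from C1 to C2 was 0.46 (adjusted p = 0.0172). Whether the 2 steps of these C/EBP genes differed in size was not tested.

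The 7 subunits of the COP1 ligase were all valid, with a median change of 0.26 from C1 to C2. In this step 3 were called higher and 0 lower (1 and 0 with spike-in scaling), beside 25.4% and 22.2% of all valid probes. Cop1 itself, the subunit that the Tribbles tail binds, changed by 0.19 (limma adjusted p = 0.107), and another of its probes had the opposite sign. Det1, the adaptor of the complex, changed by -0.11 (adjusted p = 0.449), also with a probe of opposite sign. The cullin Cul4b rose by 1.65 (adjusted p = 3.89e-10), the subunit Dda1 by 0.78 (adjusted p = 9.65e-07) and the RING protein Rbx1 by 0.43 (adjusted p = 0.00318). Known COP1 substrates split, with 2 of the 4 valid ones called higher and 2 lower, beside the same 25.4% and 22.2%. Their median change was -0.11. With the scaling of the deposited table it was 0.20, and 0 were called lower. Etv5 rose by 2.45 (adjusted p = 3.09e-09) and Etv1 by 0.55 (adjusted p = 0.00487). Jun changed by -0.78 (adjusted p = 0.00572) and Ets2 by -0.87 (adjusted p = 4.78e-05).

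**Figure D3:**
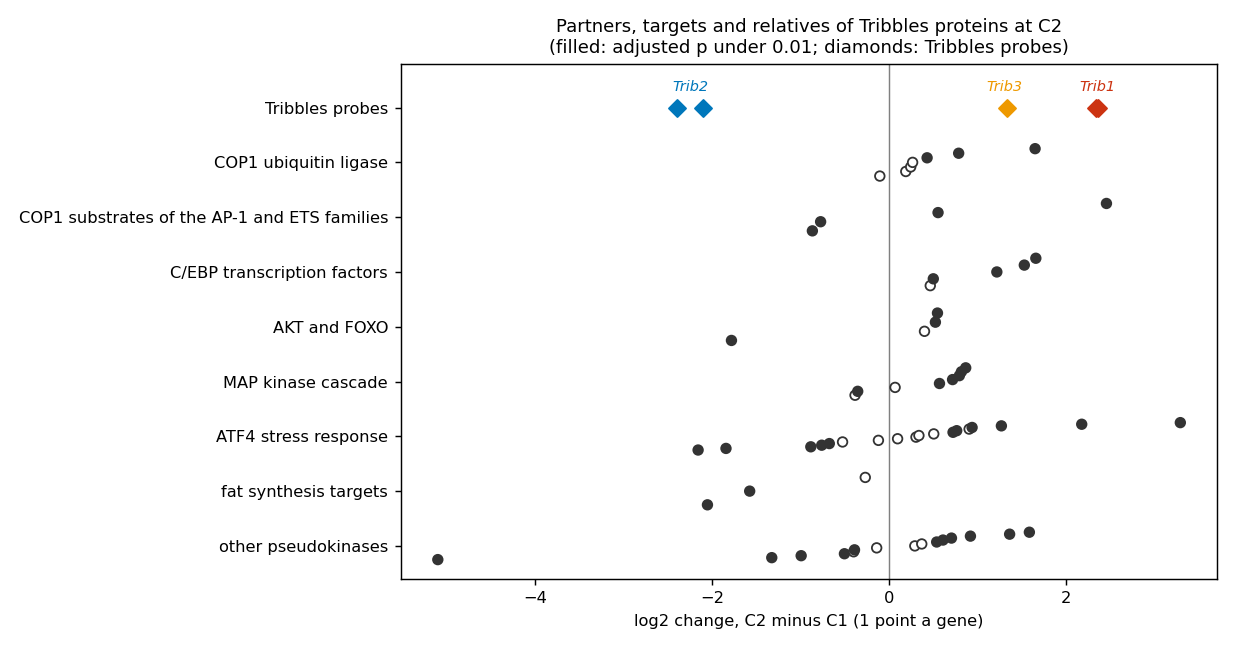
Log2 change from C1 to C2 (horizontal axis) of the valid genes of 8 lists of Tribbles partners, targets and relatives, 1 point a gene, filled where the adjusted p was below 0.01. Diamonds are the Tribbles probes. The C/EBP points lie at or above 0.46, 5 of the 8 MAP kinase points are filled to the right of 0, and the ATF4 points spread on both sides of 0.

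MAP kinase genes, whose upstream kinase MEK1 binds Tribbles proteins, were counted next. Of 8 valid genes 5 were called higher and 1 lower from C1 to C2, beside 25.4% and 22.2% of all valid probes, with a median change of 0.64. With spike-in scaling the median was 0.49 and 0 of the 8 were called by limma. Map2k1, which encodes MEK1, rose by 0.81 (limma adjusted p = 0.000105), and Mapk3, a kinase that MEK1 activates, by 0.79 (adjusted p = 6.83e-05). Mapk9 changed by -0.36 (adjusted p = 0.00365), with another probe of opposite sign. In the AKT and FOXO list, tied to TRIB3 and TRIB2, 4 of 6 genes were valid. Of these, 2 were called higher (0 with spike-in scaling) and 1 lower, beside the same 25.4% and 22.2%. Akt2 rose by 0.52 (adjusted p = 0.00182), and Foxo1, a granulosa factor that represses the ovulatory programme, fell with Trib2, by a log2 change of -1.78 (adjusted p = 4.81e-07). Between NC1 and C1 no gene of the COP1, MAP kinase or AKT lists was called by limma. Over the 17324 valid probes, 304 (1.75%) were called higher in this step and 133 lower.

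Beside Trib3, the ATF4 list held 18 valid genes of 21, with a median change of 0.32 from C1 to C2. In this step 6 were called higher and 5 lower, beside 25.4% and 22.2% of all valid probes. These counts were 7 and 2 with the scaling of the deposited table and 3 and 3 with spike-in scaling. Atf4 rose by 0.72 (limma adjusted p = 3.76e-05), the translation repressor Eif4ebp1 by 1.27 (adjusted p = 6.89e-08) and the amino acid transporter chain Slc3a2 by 0.94 (adjusted p = 2e-06). Gdf15, a stress cytokine, was lower by a log2 change of -2.16 (adjusted p = 5.45e-06), and Slc7a5, the transporter that pairs with Slc3a2, by -0.89 (adjusted p = 0.000125). The dim Chac1, a glutathione-degrading enzyme, was well above background in 1, 3 and 5 arrays of NC1, C1 and C2, and Slc7a11, the cystine transporter, in 0, 1 and 5. Its single C1 array above background was replicate 4.

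The 2 arrays with high Trib3 before ovulation differed in other genes of this response. In NC1 replicate 3, where Trib3 read -0.39, Atf3 read -2.70, the lowest NC1 value, and Ddit3 -2.32. In C1 replicate 1, where Trib3 read -0.27, Atf3 read 1.22, its highest value on any array, and Ddit3 -1.62, within its C1 range. Ddit4, an mTOR inhibitor of the same response, spread as widely at NC1, at 1.35, 1.55, 3.93, 3.42 and 4.02, with its highest values in replicates 3 to 5 rather than in replicate 3 alone.

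Of 3 fat synthesis genes, which TRIB1 and TRIB3 restrain in liver and adipose tissue, 0 were called higher and 2 lower from C1 to C2. The shares over all valid probes were 25.4% and 22.2%. These counts were the same with the scaling of the deposited table and with spike-in scaling. Mlxipl, the carbohydrate-responsive factor controlled by TRIB1 in hepatocytes, was lower by a log2 change of -2.05 (limma adjusted p = 4.22e-07) and Acacb, an acetyl-CoA carboxylase, by -1.58 (adjusted p = 1.47e-06). Acaca, the carboxylase that TRIB3 and COP1 target, changed by -0.27 (adjusted p = 0.0823), and lay above 0 with the scaling of the deposited table. The closest relative of the family, Stk40, changed by 0.37 (adjusted p = 0.17). Among 15 valid pseudokinases outside the family, 6 were called higher and 5 lower, again beside 25.4% and 22.2% of all valid probes. The counts were 7 and 3 with the scaling of the deposited table and 2 and 3 with spike-in scaling. Their changes ran from Ilk, an integrin adaptor, at 1.58 and Scyl2 at 1.36 to Ptk7 at -1.33 and Tex14 at -5.10. The change of Trib1, 2.36, was above each of these 15 values.

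The genes whose profiles lay nearest to each member were found by the root mean square difference over 15 arrays, each probe centred on its own mean, among 12669 genes with 1 probe each. For Trib1 they were Nfil3, a bZIP repressor (0.384), the kinase Hipk1 (0.389), the molybdenum cofactor sulfurase Mocos (0.405), the TWEAK receptor Tnfrsf12a (0.411) and the oligoadenylate synthetase Oas1a (0.414). For Trib2 they were Prkar2b, a regulatory subunit of protein kinase A (0.242), the cell cycle repressor E2f7 (0.256), the guanylate cyclase subunit Gucy1a1 (0.258), the stress kinase Map3k5 (0.262) and Mid1ip1, a cofactor of acetyl-CoA carboxylase (0.280). For Trib3 the nearest genes were farther away, with Spty2d1 at 0.482, Coq10b at 0.502, Zfp503 at 0.519, Fam222a at 0.523 and Alas1, the rate-limiting enzyme of heme synthesis, at 0.525. None of the Trib3 neighbours reached the level of its own C2 arrays in NC1 replicate 3, where Trib3 did, although all 5 had their highest NC1 value there.

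**Figure D4:**
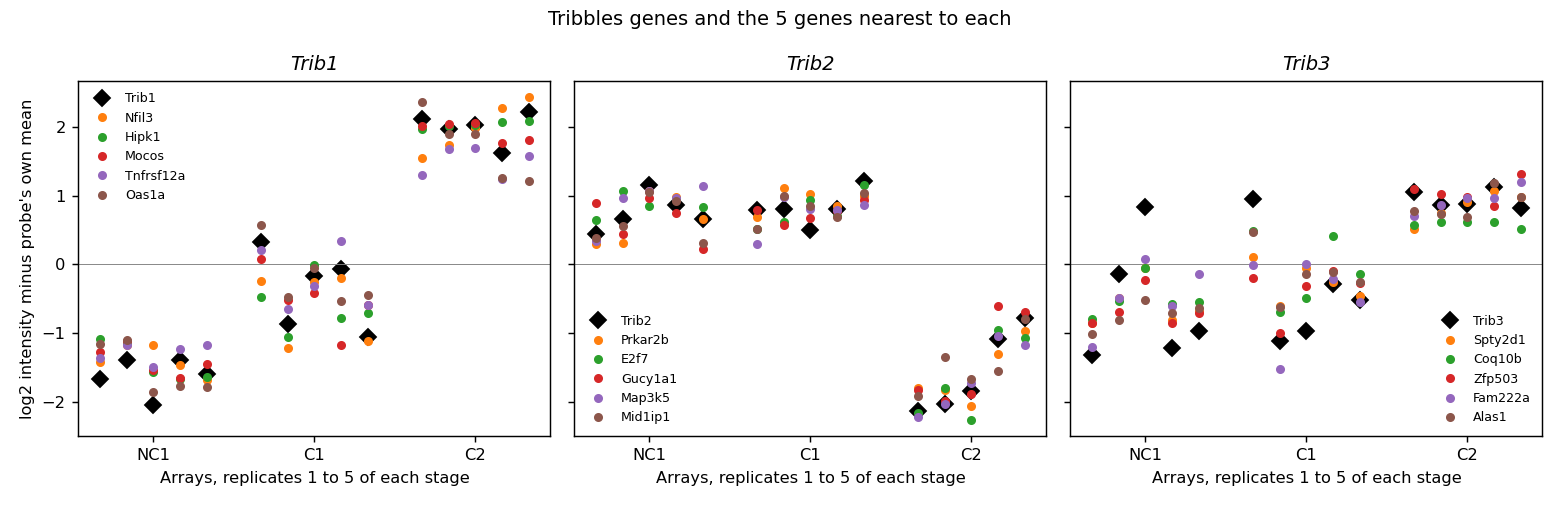
Profiles of Trib1, Trib2 and Trib3 (black diamonds) and of the 5 genes nearest to each (coloured points) over the 15 arrays. The vertical axis is the log2 intensity minus the mean of the probe over all arrays, and the columns of each stage are replicates 1 to 5. Trib2 and its neighbours share the low C2 stage, and in NC1 replicate 3 Trib3 stands above its 5 neighbours.

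Transcripts of other cells moved with some of these results. The C2 replicates 4 and 5, in which the brighter Trib2 probe was highest at that stage, were those with the lowest summed level of the 11 oocyte markers. Gdf9 read -1.69 and -1.42 there against 2.13 to 3.06 in the other C2 arrays, and H1f8 read -3.60 and -3.57 against 2.52 to 3.04. In the prophase I stages the oocyte markers summed to 12.6 to 50.2 and Trib2 stayed between 1.65 and 2.42. Trib3 read -0.09 and -0.40 in C2 replicates 4 and 5, around the -0.36 to -0.16 of the other C2 arrays. Somatic markers set the same 2 arrays apart as well. The 8 granulosa markers summed to 46.7 and 52.1 there, against 40.1 to 40.8 in the other C2 arrays. Cyp19a1 read -0.76 and -0.12 against -2.11 to -1.91, and the expansion marker Ptx3 2.71 and 2.62 against 0.53 to 0.84. Fshr went the other way, at -1.29 and -0.99 against -0.52 to -0.38. The part of oocyte transcripts, or of these somatic differences, in the Trib2 values was not tested.

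**Figure D5:**
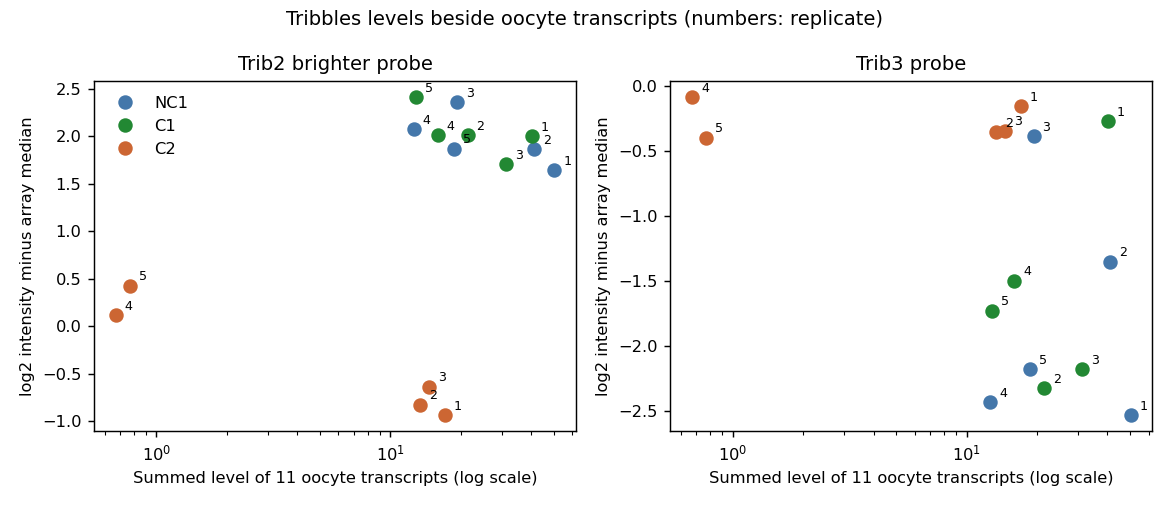
Level of the brighter Trib2 probe (left) and of the Trib3 probe (right) against the summed linear level of 11 oocyte markers relative to the array median (horizontal axis, log scale). Points are arrays, coloured by stage and numbered by replicate. C2 replicates 4 and 5 lie apart on the horizontal axis, and on the vertical axis they lie apart for Trib2 and not for Trib3.

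Macrophages are a known site of TRIB1 action. Of 9 listed leukocyte markers 8 were on the array and 5 were valid. From C1 to C2, 1 of these, Cd52, was called higher and 0 lower, beside 25.4% and 22.2% of all valid probes. From NC1 to C2, 4 of the 5 were called higher, namely Csf1r, Cd52, C1qa and C1qb, and 0 lower. Over all valid probes 26.5% were called higher in that comparison. The 8 markers summed to 3.20 to 6.30 at NC1, 4.59 to 5.61 at C1 and 6.40 to 9.22 at C2. Cd52, a surface glycoprotein of leukocytes, was called higher at both steps, as the brighter Trib1 probe was and the dimmer one was not, with changes of 1.20 (limma adjusted p = 0.00366) and 3.01 (adjusted p = 9.64e-09). The macrophage receptor Csf1r changed by 0.86 and 0.38 at these steps (adjusted p = 0.0751 and 0.232), and the integrin Itgam by -0.22 from C1 to C2 (adjusted p = 0.352). Itgam read highest of the 8 markers on every NC1 and C1 array, so it weighed most in the summed levels of those stages. All 8 leukocyte markers were seen in at least 1 array of each stage, and their part in the Trib1 values was not tested. The 6 oviduct epithelium markers summed to 4.26 to 6.59 at C1 and 10.01 to 18.4 at C2, with Pax8 above background in 0 arrays. The keratin Krt8 read highest of the 6 on every C1 and C2 array, so it weighed most in these sums. Of the 4 valid ones, Krt8 was called higher from C1 to C2 by 1.298 (limma adjusted p = 2.04e-07), while Tppp3 and Epcam were called lower. Over all valid probes 25.4% were called higher in this step and 22.2% lower. Ovgp1 changed by 2.28 (limma adjusted p = 0.0343). The 5 red blood cell markers summed to 73.5 to 439 at NC1 and 10.49 to 43.6 at C1. Their part in the Tribbles values was not tested. The theca and stroma markers went from a summed level of 9.79 to 16.3 at C1 to 0.483 to 0.718 at C2. Of the 6 listed, 5 were valid, and all 5 were called lower in this step, beside 22.2% of all valid probes. The part of oviduct, theca and stroma transcripts in the Tribbles values was not tested.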

How the data were processed

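Total RNA of cumulus cells was labelled with Cy3 and hybridized to 15 Agilent 1-colour oligonucleotide arrays. The authors deposited scanner files, in which Feature Extraction (10.7.1.1 per the file headers, 10.5.1.1 in the submitters' processing notes) gives a background-subtracted intensity for each spot, and a log2 table of 20855 probes that the authors had scaled to the median of each array. The columns of the table differed from the log2 scanner intensities by a constant for each array (SD of the difference at most 0.00756), and the table served here as an alternative. Here, spots of a probe were averaged, outlier spots were left out, log2 was taken and the median of the valid probes was subtracted. Valid probes were well above background in 80% of the arrays of each stage, which left 17324. No spot was saturated. Changes were tested with limma 3.58.1 (R 4.3.3), 1 model over 15 arrays, Benjamini-Hochberg at 0.01, and checked on simulated data. Gene pairs were tested by exact permutation (Python 3.11.15).

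Named genes were the Tribbles probes, the 5 genes nearest to each member by root mean square difference, and members of 8 pathway lists, with the probe of highest mean for each gene. Members, lists and marker genes were chosen with earlier results of these data known. Probes were named through RefSeq accessions (26055), by the deposited table only (2770) or not at all (10604). Depth has no counterpart on arrays, and the number of arrays limits the precision. Alternatives were other scalings, background, filters, blocks, variances and left-out arrays. For normexp (offset 50), the median signal stood in for the mean signal, which was not used here. A block for scan day was not run because all arrays had 1 scan day. Some members of the pathway lists are counted and not reported here by name.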

Additional observations from a re-analysis of the deposited data

Results flagged for a closer look

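Arrays were looked for whose gap to the nearest other array of the stage, divided by the range of the stage, was above 0.71 (Dixon's critical value for 5 samples at 95%). None was found for a Tribbles probe. Among the other genes looked at, such arrays were found for 12 of the 201 groups of 5 arrays, Tribbles probes included, and chance gives about 1 in 20. Some marker genes named above were not among these groups. Cop1 read 3.14 in C1 replicate 2, against 2.69 to 2.80 in the other C1 arrays. Ets2 read 0.74 in C1 replicate 1, against 0.34 to 0.45. Mapk3 read 0.58 in NC1 replicate 3, where Trib3 was high, against 0.96 or more. Tex14 read 2.88 in C1 replicate 2, against 1.74 to 2.01. The cystine transporter Slc7a11 read -2.17 in C1 replicate 4, against -6.98 to -5.83, and -2.33 in C2 replicate 4, against -3.04 to -2.86. Map3k5, a neighbour of Trib2, read -0.45 in NC1 replicate 1, against 0.18 to 0.36, and -0.49 in C1 replicate 1, against 0.00 to 0.20. Zfp503, a neighbour of Trib3, read 0.016 in NC1 replicate 3, against -0.61 to -0.45, and -0.76 in C1 replicate 2, against -0.07 to 0.15. The expansion marker Tnfaip6 read 2.70 in C1 replicate 4, the array with the high sum of expansion markers, against -3.77 to -2.90. Csf1r read 0.94 in C2 replicate 1, against -0.59 to -0.15. Outside the groups looked at, the markers Ptx3 and Cyp19a1 also passed the rule at C1. Ptx3 read 0.81 in C1 replicate 4, against -5.60 to -4.30 in the other C1 arrays. Cyp19a1 read 4.58 in C1 replicate 1, against 2.56 to 3.11.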

How the results depend on the processing

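The number of arrays and, for the dimmer Trib2 probe, signal over background limit the precision. Of 747 Tribbles values under 31 alternatives, 690 kept their direction and side of the threshold, 41 lost a call, 8 gained one and 8 changed sign. The calls of Trib1 and of the brighter Trib2 probe from C1 to C2 and from NC1 to C2 were among those that held throughout. For the other values the cause was not tested. The median change of all valid probes from NC1 to C1 and from C1 to C2 was -0.03 and 0.02, against -0.14 and 0.33 with the median over all gene probes or the deposited table, and 0.13 and -0.13 with spike-ins. Omission of both C2 arrays low in oocyte markers was chosen after seeing the data.

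The brighter Trib1 probe lost its call from NC1 to C1 with the deposited table (1.15), the median over all gene probes (1.15), no filter, only these stages or unmoderated variances (1.26 each). Its step difference was called with normexp (1.17), and that of the dimmer probe with the table, the median over all gene probes (1.75 each) and normexp (1.25). For the dimmer Trib2 probe the step difference lost its call with the table (-1.96) and the median over all gene probes (-1.95). The brighter Trib2 probe changed sign from NC1 to C1 with the table, the median over all gene probes (-0.040 each) and slide as a fixed block (-0.0020).

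The F-test of Trib3 gave an adjusted p of 0.0207 with no filter, 0.0153 with slide as a fixed block, 0.0199 with unmoderated variances and 0.0367 without both C2 arrays. Its call from C1 to C2 was lost with the filter on at least 1 stage, no filter or unmoderated variances (1.33 each), slide as a fixed block (1.24), spike-ins (1.18) or without both C2 arrays (1.32). From NC1 to C2 it was lost with no filter, unmoderated variances (1.51 each) or without both C2 arrays (1.49).

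Replicate numbers did not pair the arrays over all stages, since 4 of 15 correlations of same-numbered arrays were over 0.1 (-0.242 to 0.348). Between NC1 and C1 they were 0.348, 0.341 and 0.345 for replicates 2, 4 and 5, and 0.075 and 0.056 for replicates 1 and 3. A link by number between these stages is thus not settled. With the replicate number as a block, Trib3 lost the F-test (adjusted p = 0.0153) and its call from C1 to C2 (1.33, adjusted p = 0.0181), and the other Tribbles calls held. The calls over all probes were 404 from NC1 to C1 and 8059 from C1 to C2.

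With 1 array left out, the step difference was 0.76 to 1.45 for the brighter and 1.03 to 1.61 for the dimmer Trib1 probe (called without C1 replicate 1 and without C1 replicate 3), and the change of the latter from NC1 to C1 0.87 to 1.16 (called without C1 replicate 2 or 5). The brighter Trib2 probe changed by -0.029 to 0.17 from NC1 to C1 (-0.029 without C1 replicate 5, -0.013 without NC1 replicate 1). Trib3 changed by -0.16 to 0.52 from NC1 to C1 (-0.16 without C1 replicate 1, -0.013 without NC1 replicate 1), by 1.15 to 1.67 from C1 to C2 and by 1.32 to 1.86 from NC1 to C2 (call lost without NC1 replicate 1 or 4), with an F-test p of 0.000442 to 0.0162. The list genes higher at C1 than at NC1 numbered 1 to 3.

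All calls from NC1 to C1, 437, became 272 with the table, 271 with the median over all gene probes and 274 with spike-ins, which also gave 4404 in place of 8253 from C1 to C2, 5157 in place of 8916 from NC1 to C2 and 5121 in place of 8930 by F-test. List genes higher at C1 than at NC1, 2, became 1 with the table, the median over all gene probes, only these stages, spike-ins or unmoderated variances and 0 by limma with no filter. From C1 to C2 the list genes higher, 28, became 10 with spike-ins, and those lower, 16, became 8 with the table or the median over all gene probes. With the other probe of a gene, Trib1 minus Trib2 from NC1 to C1 was 0.73 and Trib1 minus Trib3 from C1 to C2 1.00, no longer called, and Trib2 minus Trib3 from NC1 to C1 was 0.091.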
